A study of Mus musculus with 18 samples.

Results

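Folic acid at a high dose injures kidney tubules, and 10 genes known from kidney development, progenitor cells and loss of the mature tubule state were followed here through the injury and the 2 weeks after it. They are the transcription factor genes Sox9, Sox4, Sox11, Pax2, Pax8, Lhx1, Snai2 and Twist1 and the cell surface genes Prom1 and Cd24a. They were chosen by name, with earlier results of these data known, and found by Ensembl identifier among the 37991 gene identifiers of the count tables. All 10 were found, and all 10 passed the low-count filter that left 16824 genes for testing. RNA sequencing had been done on frozen whole kidney of male Balb/c mice weighing 25 to 29 g. The 5 treated groups had been given folic acid once by intraperitoneal injection, at 250 mg/kg in 0.3 M sodium bicarbonate, and were killed 1, 2, 3, 7 or 14 days later. The sixth group was untreated, and no group injected with bicarbonate alone was analysed here. Each group had 3 libraries made from 10 ng of total RNA, and the labels give no age, no transgene and no statement that the 3 libraries came from separate mice. The p-values therefore measure the spread between these libraries, which may be technical.

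Sox9 is a SoxE transcription factor of the early ureteric bud and nephron that is nearly silent in adult tubule cells and is known to come on in tubule cells that survive an injury. Sox4 and Sox11 are the SoxC factors of the forming nephron. Pax2, Pax8 and Lhx1 are the factors that set up the nephric lineage; Pax8 stays on in the adult tubule, and Pax2 mainly in the collecting duct. Prom1 (CD133, a membrane protein of cell protrusions) and Cd24a (a small lipid-anchored surface glycoprotein) are used as markers of progenitor-like kidney epithelium. Snai2 and Twist1 are repressors best known from the epithelial-mesenchymal transition, in which cells give up epithelial contacts.

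Gene reads per library ranged from 8.68 M to 54.6 M (M, 1000000 reads), of which 59.0% to 75.6% were from mitochondrial genes, so 2.83 M to 17.2 M reads measured nuclear genes. The shallowest library was replicate 2 of day 2. Levels are CPM (counts per 1000000 gene reads) with TMM scaling, a correction for differences in RNA composition. As a check of the tissue, 13 markers of the proximal tubule summed to 5757 to 6315 CPM in untreated kidney, 816 to 984 CPM at day 1, 1178 to 1479 CPM at day 2, 1688 to 2266 CPM at day 3, 1367 to 1995 CPM at day 7 and 1975 to 4061 CPM at day 14, and none of them was at 0 in a whole group. Of these 13, 12, 11, 11, 12 and 2 fell at days 1, 2, 3, 7 and 14. Whole kidney was measured, so fewer cells of a type and less RNA per cell cannot be told apart. Replicate 3 of day 14 stood apart from its group. Its proximal tubule markers summed to 1975 CPM against 3649 and 4061 CPM in the other libraries of that day, and 18 genes of injured tubule summed to 3084 CPM against 1095 and 858 CPM. The fitted day 14 values of the 10 genes are given below with and without it, as are the list counts that changed when it was left out. The falls of the proximal tubule markers Gatm and Lrp2 at day 14, for example, were not called without it.

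Sox9, Sox4 and Cd24a rose by day 1 and stayed above untreated kidney through day 7, Pax8 rose at days 2 and 7, and Lhx1 fell at day 1. A gene was called at a Benjamini-Hochberg adjusted p under 0.05 in edgeR's quasi-likelihood test over all genes tested. At day 1, 3 of the 10 genes were called higher and 1 lower, while 10.7% of all genes were called in either direction (5.09% higher, 5.56% lower). At day 2, 4 were higher and 0 lower against a background of 13.2% (7.19% higher, 5.98% lower). At day 3, 3 were higher and 0 lower against 7.61% (4.18% higher, 3.43% lower). At day 7, 4 were higher and 0 lower against 7.72% (3.87% higher, 3.85% lower). At day 14, 2 were higher, Sox9 and Sox4, and 0 lower against 1.55% (1.24% higher, 0.309% lower). With replicate 3 of day 14 left out, none of the 10 was called against untreated kidney and 0.633% of all genes were. With all libraries in the fit, the share called among the 10 genes was above the share over all genes at each of the 5 times. At day 14 this did not hold without replicate 3. The 10 genes were chosen with earlier results of these data known, so the higher share is a description and not a test. The median log2 fold change of the 10 genes was 1.19, 1.50, 1.30, 1.20 and 0.76 at the 5 times, and that of all genes lay between 0.034 and 0.066. The day 14 median of the 10 genes was 0.45 without replicate 3. All 5 comparisons share the 3 untreated libraries and are not independent of each other.

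Across the 6 groups in a single F test, 5 of the 10 genes differed, where 19.7% of all genes did. These were Sox9 (edgeR adjusted p = 0.00021), Cd24a (0.00112), Sox4 (0.00774), Pax8 (0.0144) and Sox11 (0.0282). The test was not passed by Lhx1 (0.080), Snai2 (0.0825), Twist1 (0.0847), Pax2 (0.256) or Prom1 (0.507).

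**Figure D1:**
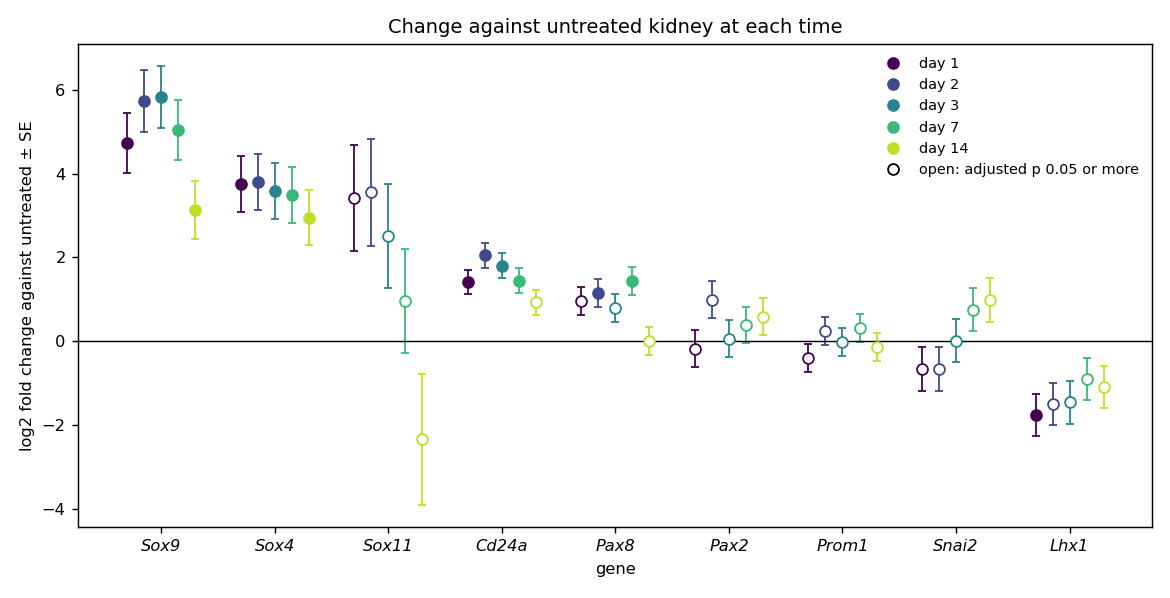
Fitted log2 fold change (vertical axis, ± SE) of 9 of the genes (horizontal axis) at each day against untreated kidney, with 3 libraries per group. Filled points passed the edgeR test at an adjusted p under 0.05. Sox9 lies highest at days 1 to 7 and Lhx1 lies below 0 at every day. Twist1 is not drawn because untreated kidney had no read of it.

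Sox9 (ENSMUSG00000000567) showed the largest called change of the 10 genes against untreated kidney. Untreated kidney held 8, 5 and 4 Sox9 reads in replicates 1, 2 and 3, or 0.435, 0.119 and 0.251 CPM. At day 1 the libraries stood at 6.47, 9.47 and 4.24 CPM, and at day 2 at 16.0, 14.4 and 10.1 CPM. The lowest treated library of these days was thus well above the highest untreated library. At day 3 the values were 12.3, 23.5 and 7.43 CPM, and at day 7 they were 12.6, 5.24 and 7.18 CPM. At day 14 they were 0.997, 1.14 and 4.52 CPM, again with no overlap with untreated kidney but with replicate 3 far above the others. The mean rose from 0.268 ± 0.159 CPM to 6.73 ± 2.63, 13.5 ± 3.04, 14.4 ± 8.24, 8.33 ± 3.79 and 2.22 ± 2.00 CPM (SD, n = 3 each). Fitted folds were 26.5 at day 1 (log2 4.73 ± 0.72 SE, edgeR adjusted p = 0.000255), 53.1 at day 2 (5.73 ± 0.74, 5.65e-05), 56.7 at day 3 (5.83 ± 0.74, 0.000115) and 32.8 at day 7 (5.04 ± 0.72, 0.00036). At day 14 the fold was 8.77 (log2 3.13 ± 0.70, edgeR adjusted p = 0.0266). Without replicate 3 of day 14 the log2 fold change was 2.08 and no longer passed (edgeR adjusted p = 0.190), and with a single untreated library left out, whichever it was, it did not pass either (log2 2.66 to 3.68, edgeR adjusted p from 0.0532 to 0.149). Neither the fit of only those 2 groups (edgeR adjusted p = 0.149) nor limma-voom (0.218) made the day 14 call.

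Sox4 (ENSMUSG00000076431) rose at every time too and was near its highest mean already at day 1. It stood at 0.816, 0.309 and 0.188 CPM in untreated kidney and at 4.46, 11.2 and 1.91 CPM at day 1. At day 2 it was at 5.22, 8.45 and 4.65 CPM, at day 3 at 5.34, 4.66 and 5.67 CPM, and at day 7 at 6.64, 3.60 and 4.44 CPM. Day 1 was the most scattered of these groups and day 3 the tightest, and no treated library overlapped the untreated ones. At day 14 the values were 2.73, 1.99 and 5.38 CPM, with replicate 3 again the highest. Means were 0.438 ± 0.333 CPM in untreated kidney and 5.86 ± 4.80, 6.11 ± 2.05, 5.22 ± 0.514, 4.89 ± 1.57 and 3.37 ± 1.78 CPM at the 5 times (SD, n = 3). The fitted folds were 13.5, 13.9, 12.0 and 11.2 at days 1, 2, 3 and 7, with log2 SEs of 0.67, 0.67, 0.67 and 0.66 (edgeR adjusted p = 0.00113, 0.00107, 0.00266 and 0.00321). At day 14 the fold was 7.73 (log2 2.95 ± 0.65, edgeR adjusted p = 0.0265). The day 14 call was lost without replicate 3 of day 14 (log2 2.44, edgeR adjusted p = 0.127), without untreated replicate 2 (2.70, 0.140) and without untreated replicate 3 (2.62, 0.104). It was also lost with only those 2 groups in the fit (edgeR adjusted p = 0.104) and with limma-voom (0.122). Untreated replicate 1 had the highest Sox4 level of its group, and without it the log2 fold changes were 4.47, 4.50, 4.29, 4.21 and 3.67 at the 5 times, all of which passed. Without replicate 2 of day 1, the day 1 value was 2.86. A long noncoding gene, Gm26735, overlaps Sox4 on the other strand, and as the strand setting of the counting is not given in the sources used here, its reads cannot be told from those of Sox4.

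Sox11 (ENSMUSG00000063632), the SoxC paralog of Sox4, had its highest levels in the first 3 days, on few reads. Untreated kidney held 0, 3 and 7 reads (0, 0.0713 and 0.438 CPM). At day 1 the level was 1.71, 1.78 and 1.67 CPM, the tightest group of this gene, and at day 2 it was 3.53, 1.35 and 0.653 CPM. At day 3 it was 1.23, 0.758 and 0.735 CPM, so every library of days 1 to 3 was above every untreated one. At day 7 replicate 1 was at 0.855 CPM and the others held 0 and 2 reads, and at day 14 the libraries held 0, 0 and 2 reads. The ratio of summed reads to untreated kidney was 13.1 at day 1 (95% exact interval 6.99 to 27.8), 18.7 at day 2 (9.95 to 39.6) and 6.86 at day 3 (3.55 to 14.8), where the intervals cover counting error only. In edgeR's fit of all libraries, which includes the spread between libraries, no day passed against untreated kidney. The log2 fold changes were 3.42 ± 1.26, 3.55 ± 1.27 and 2.50 ± 1.24 on the first 3 days (edgeR adjusted p = 0.093, 0.0725 and 0.245). They were 0.97 ± 1.24 at day 7 and −2.34 ± 1.56 at day 14 (edgeR adjusted p = 0.729 and 0.513), and both day 14 reads came from replicate 3. Without it the day 14 value was −5.25 (edgeR adjusted p = 0.482). DESeq2 and limma-voom, which also include that spread, each called Sox11 higher at days 1 and 2. With single libraries left out, the edgeR adjusted p at day 2 ran from 0.0466 to 0.251.

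**Figure D2:**
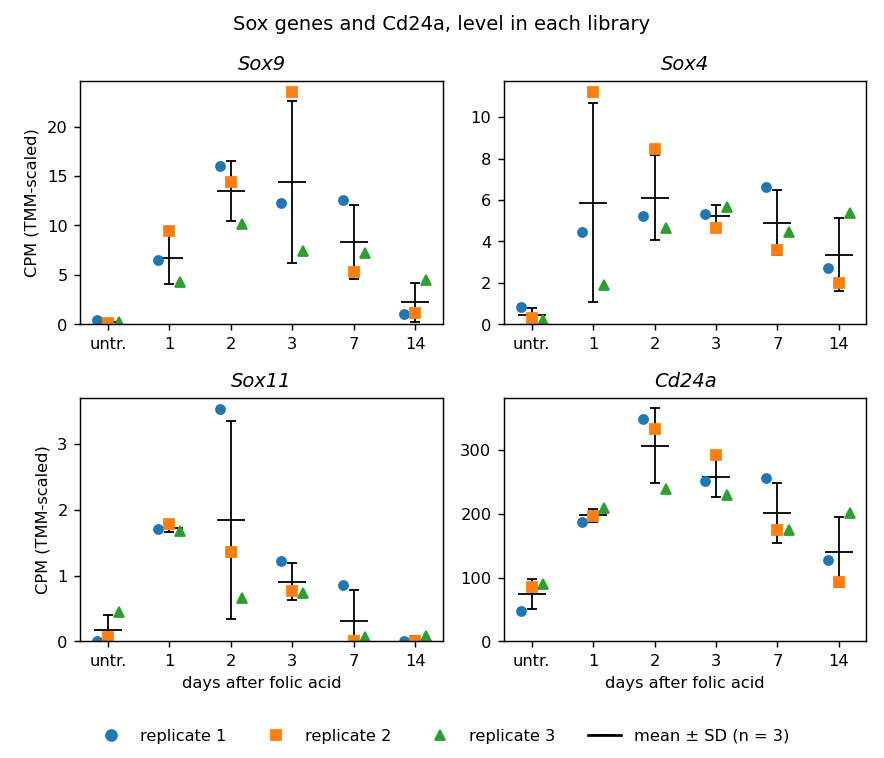
Level of Sox9, Sox4, Sox11 and Cd24a (vertical axis, TMM-scaled CPM, starting at 0) in each library of untreated kidney and of kidneys 1 to 14 days after folic acid (horizontal axis). Points are libraries, and the bar with whiskers is the mean ± SD of 3, with whiskers stopped at 0. Sox9 goes from 0.268 ± 0.159 CPM to 14.4 ± 8.24 CPM at day 3, Sox4 stands between 4.89 and 6.11 CPM on average from day 1 to day 7, and Sox11 is back near 0 at day 14.

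The region before the transcription start is shown for Sox4 and Sox11, the SoxC genes among the 10, from RefSeq on GRCm38.p6. RefSeq start regions were at hand for 7 of the 10 genes. Capitals mark matches to 6 short motifs searched on both strands in the 250 bases before the start: the TATA box TATAAA, the CCAAT box CCAAT, the GC box GGGCGG, the AP-1 site TGANTCA, the Sox site AACAAT and the CAGGTG E-box read by Snai and Twist proteins. These letters stood in 12.4%, 33.8%, 32.7%, 6.75%, 9.42% and 17.2% of 32851 mouse start regions of that length. The Sox4 stretch is chr13:28953714-28953949 on the minus strand, from 250 to 15 bases before the start, and the Sox11 stretch is chr12:27342719-27342968 on the minus strand.
Sox4: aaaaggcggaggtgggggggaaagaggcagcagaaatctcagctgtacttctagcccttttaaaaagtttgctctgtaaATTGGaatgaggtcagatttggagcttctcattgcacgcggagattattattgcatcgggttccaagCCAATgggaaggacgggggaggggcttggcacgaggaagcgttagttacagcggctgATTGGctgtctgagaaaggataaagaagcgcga
Sox11: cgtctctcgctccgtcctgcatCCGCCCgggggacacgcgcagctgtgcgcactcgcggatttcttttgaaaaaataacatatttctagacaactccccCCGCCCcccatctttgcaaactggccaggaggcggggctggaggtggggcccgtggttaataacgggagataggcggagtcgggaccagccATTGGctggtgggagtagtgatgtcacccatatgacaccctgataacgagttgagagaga
The Sox4 window holds 4 CCAAT matches, of which 3 lie in the stretch shown, at 171, 104 and 47 bases before the start. Of all start regions, 276 (0.84%) hold 4 or more. Sox11 has 1 CCAAT match, 60 bases before the start, and 2 GC boxes, at 228 and 151 bases. Neither window holds a TATA box, AP-1, Sox or CAGGTG match. The bases of the Sox4 window nearest the start are not shown because a GENCODE exon of Sox4 overlaps them. For Sox11, the bases after the RefSeq start were not found in a GENCODE transcript of the gene. Its distances therefore rest on the RefSeq start alone. A match describes the letters only.

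Of the other Sox genes, 15 of 16 listed were found and 8 were expressed enough to test. None was called at days 1, 3, 7 or 14, and at day 2 only Sox12, the third SoxC gene, was called higher. It went from 2.00 ± 1.14 CPM to 12.2 ± 11.3 CPM at day 2 (SD, n = 3; log2 2.63, edgeR adjusted p = 0.016), and lost the call when replicate 3 of day 2 or untreated replicate 1 or 2 was left out. The median log2 fold change of the 8 genes was −0.62, −0.95, −0.04, −0.03 and 0.44 at the 5 times.

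Cd24a (ENSMUSG00000047139) rose at days 1, 2, 3 and 7, with the smallest SE of the called genes. It stood at 46.7, 84.5 and 90.4 CPM in untreated kidney, 188, 197 and 209 CPM at day 1, 348, 333 and 239 CPM at day 2, 252, 291 and 230 CPM at day 3, and 256, 174 and 175 CPM at day 7. Every library of days 1 to 7 was above every untreated library. Fitted folds were 2.68 at day 1 (log2 1.42 ± 0.29, edgeR adjusted p = 0.00333), 4.15 at day 2 (2.05 ± 0.30, 0.000158), 3.49 at day 3 (1.80 ± 0.29, 0.000942) and 2.73 at day 7 (1.45 ± 0.29, 0.00461). At day 14 the libraries were at 127, 93.4 and 201 CPM, all just or well above the untreated ones, and the fold of 1.90 did not pass (log2 0.93 ± 0.29, edgeR adjusted p = 0.109). The log2 value was 0.57 without replicate 3 of day 14 (edgeR adjusted p = 0.485). Over all single libraries left out, it ran from 0.57 to 1.14, with an edgeR adjusted p from 0.0495 to 0.485. Prom1 (ENSMUSG00000029086), the other surface gene, gave 12.5, 24.0 and 33.3 CPM in untreated kidney, and its 15 treated libraries lay between 14.3 and 38.4 CPM, across the untreated range. Its log2 fold changes were −0.39, 0.24, −0.02, 0.32 and −0.14 at the 5 times, each with an SE of 0.33, and edgeR adjusted p was 0.533 or more. The day 14 value was −0.14 also without replicate 3. An antisense gene, Gm16401, overlaps exons of Prom1.

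Pax8 (ENSMUSG00000026976) was steady in untreated kidney, at 41.5, 39.8 and 40.5 CPM. At day 1 it was at 53.4, 102 and 79.5 CPM, at day 2 at 64.8, 100.1 and 104 CPM, and at day 3 at 71.4, 61.1 and 78.1 CPM. At day 7 it spread from 51.3 CPM in replicate 2 to 166 CPM in replicate 1, with 109.9 CPM in replicate 3. At day 14 it was at 36.8, 45.5 and 39.5 CPM, on both sides of the narrow untreated range, while every library of days 1 to 7 was above that range. It passed at day 2 (2.21-fold, log2 1.14 ± 0.33, edgeR adjusted p = 0.0286) and day 7 (2.69-fold, 1.43 ± 0.34, 0.0132), and did not at day 1 (log2 0.95 ± 0.33, 0.077), day 3 (0.79 ± 0.33, 0.158) or day 14 (0.00 ± 0.33, 0.999; 0.021 without replicate 3). Neither call held in every fit. The day 2 call was lost when any untreated library or replicate 2 or 3 of day 2 was left out (edgeR adjusted p from 0.0807 to 0.0915), and limma-voom did not make it (0.0866). The day 7 call was lost without replicate 1 of day 7 (log2 0.99, edgeR adjusted p = 0.106) and without untreated replicate 2 (0.0534). Gm13415 overlaps exons of Pax8 on the other strand.

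The start region of Pax8 is printed as that of a tubule factor that moved with a smaller fold than the Sox genes. It is chr2:24475600-24475849 of GRCm38.p6 on the minus strand, with motif matches in capitals as before.
Pax8: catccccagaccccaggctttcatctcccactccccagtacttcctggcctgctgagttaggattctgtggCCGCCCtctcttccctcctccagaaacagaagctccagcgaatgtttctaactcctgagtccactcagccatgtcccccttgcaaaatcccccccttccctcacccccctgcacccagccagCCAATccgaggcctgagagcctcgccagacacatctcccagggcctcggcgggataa
It holds 1 GC box, 179 bases before the start, and 1 CCAAT match at 57 bases.

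Pax2 (ENSMUSG00000004231), the paralog of Pax8, was at 7.45, 12.6 and 4.89 CPM in untreated kidney and between 5.57 and 28.9 CPM in the treated libraries. The top value was replicate 3 of day 2, where the others were at 10.4 and 10.3 CPM. Its log2 fold changes were −0.18 ± 0.44, 0.99 ± 0.45, 0.06 ± 0.44, 0.39 ± 0.44 and 0.59 ± 0.44 at the 5 times, and none passed (edgeR adjusted p from 0.156 to 0.961). Without that library the day 2 value was 0.31, and the day 14 value was 0.32 without replicate 3 of day 14.

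Lhx1 (ENSMUSG00000018698) was the gene of the 10 that was called lower against untreated kidney. It stood at 9.62, 26.3 and 12.2 CPM in untreated kidney and at 2.97, 6.66 and 4.57 CPM at day 1, with no overlap. At day 2 it was at 8.91, 3.55 and 4.34 CPM, also below every untreated library, and at day 3 at 4.51, 3.22 and 9.81 CPM, where the ranges overlapped. At day 7 it was at 7.10, 8.27 and 10.3 CPM and at day 14 at 10.9, 6.53 and 5.14 CPM. The day 1 level was 3.38-fold lower (log2 −1.76 ± 0.51, edgeR adjusted p = 0.0329). The later values were −1.50 ± 0.51 (0.0594), −1.46 ± 0.51 (0.0865), −0.91 ± 0.50 (0.308) and −1.10 ± 0.50 (0.294) and did not pass. DESeq2 called Lhx1 lower at days 2 and 3 as well as at day 1, and limma-voom at day 1 only. At day 2 the edgeR value also passed when replicate 1 of that day was left out (log2 −2.02, edgeR adjusted p = 0.0313). At day 3 the edgeR adjusted p ran from 0.0362 to 0.383 with single libraries left out. The day 14 value was −0.89 without replicate 3 (0.645). The day 1 call rested on single libraries: without untreated replicate 2, which was at 26.3 CPM, the log2 value was −1.20 (edgeR adjusted p = 0.199), and it was also lost without replicate 1 (0.134) or 3 (0.0974) of day 1. It was lost as well with library totals in place of TMM (0.0688) and with the replicate number as a block (0.0504).

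**Figure D3:**
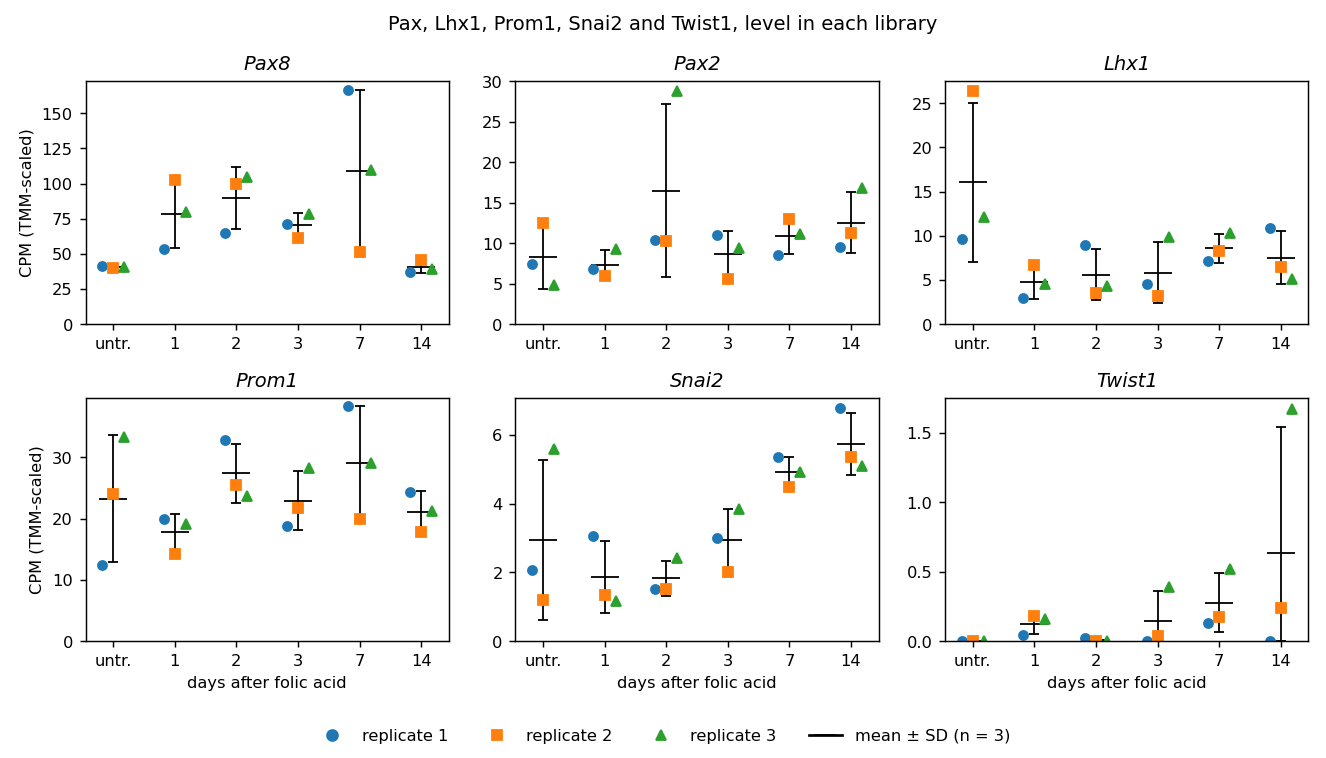
Level of Pax8, Pax2, Lhx1, Prom1, Snai2 and Twist1 (vertical axis, TMM-scaled CPM, starting at 0) in each library of untreated kidney and of kidneys 1 to 14 days after folic acid (horizontal axis). Points are libraries, and the bar with whiskers is the mean ± SD of 3, with whiskers stopped at 0. Lhx1 is at 16.0 ± 9.01 CPM in untreated kidney and 4.74 ± 1.85 CPM at day 1, and the Twist1 mean at day 14 rests on replicate 3.

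Snai2 (ENSMUSG00000022676) and Twist1 (ENSMUSG00000035799) had their highest means at days 7 and 14, with no call at any day. Snai2 was at 2.07, 1.19 and 5.57 CPM in untreated kidney, between 1.17 and 3.83 CPM at days 1 to 3, at 5.36, 4.49 and 4.93 CPM at day 7 and at 6.77, 5.35 and 5.09 CPM at day 14. Untreated replicate 3 lay above the 3 day 7 libraries and inside the day 14 range. The log2 fold changes were −0.66 ± 0.53, −0.66 ± 0.53, 0.02 ± 0.52, 0.76 ± 0.52 and 0.98 ± 0.52 (edgeR adjusted p from 0.391 to 0.992), and 1.06 at day 14 without replicate 3 (0.562). Twist1 had no read in untreated kidney. It had 1, 8 and 8 reads at day 1, 1, 0 and 0 at day 2, 0, 1 and 15 at day 3, 4, 5 and 15 at day 7 and 0, 6 and 41 at day 14. Most Twist1 reads of days 3 and 14 came from replicate 3. The summed Twist1 reads were also compared with a floor of 3 counts over the untreated group. The ratios to that floor were 3.68, 4.31, 7.00 and 16.6 for days 1, 3, 7 and 14. They allow neither for counting error in the treated reads nor for the spread between libraries, so they are not lower limits of the change. With replicate 3 left out, 1 read remained at day 3, which is under that floor (ratio 0.45). Day 7 then held 9 reads (3.92) and day 14 held 6 (3.20). With the spread between libraries included, none of days 1, 3, 7 and 14 passed (edgeR adjusted p = 0.175, 0.172, 0.107 and 0.106). The fitted day 14 log2 value, against a group with no read, was 7.24 ± 2.18. Without replicate 3 it was 4.91 (edgeR adjusted p = 0.448). Markers of fibroblasts and pericytes summed to 37.9 to 65.2 CPM in untreated kidney, 60.9 to 98.8 at day 1, 56.9 to 103 at day 2, 135 to 342 at day 3, 184 to 341 at day 7 and 183 to 421 CPM at day 14, the last value being replicate 3. Of 8 such markers, 2, 2, 3, 4 and 3 were called higher at the 5 times and 1, 2, 0, 0 and 0 lower, and none was at 0 in a whole group. Their part in the Snai2 and Twist1 values was not tested.

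Compared without regard to calls, 7 of the 10 genes did not overlap with untreated kidney at day 1, where 31.1% of all genes did not overlap. At day 2 it was 6 genes against 28.0%, at day 3 it was 5 against 28.4%, at day 7 it was 5 against 28.5% and at day 14 it was 3 against 21.9%. The 3 genes at day 14 were Sox9, Sox4 and Cd24a.

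Per kilobase of exon, which allows levels of different genes to be compared, untreated kidney held Cd24a at 28.6 CPM per kilobase and Pax8 at 6.69. Lhx1 followed at 3.94, Prom1 at 3.24, Pax2 at 1.53 and Snai2 at 1.46 CPM per kilobase. Sox4 was at 0.0912, Sox9 at 0.0648 and Sox11 at 0.0204 CPM per kilobase, the lowest of the 9 genes with a read. At day 2 Cd24a was at 119 and Pax8 at 14.8 CPM per kilobase, followed by Prom1 at 3.81, Sox9 at 3.26 and Pax2 at 3.05. Lhx1 was at 1.38, Sox4 at 1.27 and Sox11 at 0.222 CPM per kilobase that day. Sox9 thus went from eighth in untreated kidney to the fourth place at day 2.

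The order of the 6 groups was, by mean level, day 3, 2, 7, 1, 14 and untreated for Sox9, and day 2, 1, 3, 7, 14 and untreated for Sox4. In both orders the only neighbours that differed by edgeR's test were day 14 and untreated kidney, and neither difference passed without replicate 3 of day 14. For Cd24a the order was day 2, 3, 7, 1, 14 and untreated, and for Pax8 it was day 7, 2, 1, 3, 14 and untreated. No neighbours differed by that test for these genes or for the other 6. From each time to the next, 0 of the 10 genes were called in any step, where 0.0594%, 0.25%, 0.0178% and 0.0178% of all genes were called from day 1 to 2, 2 to 3, 3 to 7 and 7 to 14. At an unadjusted p under 0.05 the counts were 2, 1, 0 and 3. The share of all genes at that threshold was not counted, so the percentages above are no background for these counts. After adjustment DESeq2 called 0, 0, 0 and 1 of the 10 genes, the last being Pax8, and limma-voom called 0 in every step. Among all genes, DESeq2 called 515, 724, 217 and 147 of 27201 in these steps, and limma-voom 8, 12, 11 and 3 of 16824. With replicate 3 of day 14 left out, edgeR called Sox9 lower at day 14 than at day 7 (log2 −2.96, edgeR adjusted p = 0.0498). For Pax8 in that step, the edgeR adjusted p ran from 0.0434 to 0.580 with single libraries left out.

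Day 14 differed from the early days in several of the genes. Against day 2, 4 of the 10 were called lower and 0 higher, where 9.43% of all genes were called (4.74% lower). These were Sox9 (log2 −2.60 ± 0.61, edgeR adjusted p = 0.0119), Sox11 (−5.88 ± 1.50, 0.0191), Cd24a (−1.13 ± 0.29, 0.0194) and Pax8 (−1.14 ± 0.33, 0.0379). Sox4 was at −0.84 ± 0.58 and did not pass (0.403). Snai2 (1.64 ± 0.54, 0.063) stood higher in every day 14 library than in every day 2 library, as did 13.7% of all genes. DESeq2 called that Snai2 difference and edgeR did not. Its value was 1.72 without replicate 3 of day 14 (edgeR adjusted p = 0.0925). Against day 1, Sox11 alone was called lower (−5.76 ± 1.49, edgeR adjusted p = 0.0224), where 8.06% of all genes were called (3.43% lower). DESeq2 and limma-voom also called Snai2 different between those days. Against day 3, Sox9 alone was called lower (−2.69 ± 0.61, 0.0417), where 0.791% were (0.446% lower). Sox11 had 2 reads at day 14, so its ratios are also given from reads. Day 1 was 62.1 times day 14 (95% exact interval 17.0 to 516) and day 2 was 88.3 times (24.1 to 734), for counting error only. None of these 6 differences passed when replicate 1 or replicate 2 of day 14 was left out (edgeR adjusted p from 0.0585 to 0.168). The Sox9 difference from day 3 was also lost without replicate 1 (0.0739) or 2 (0.196) of day 3, and the Sox11 difference from day 2 without replicate 1 of day 2 (0.0618). The Cd24a difference was also lost without replicate 1 (0.0536) or 2 (0.0543) of day 2, and the Pax8 difference without replicate 2 (0.0994) or 3 (0.103) of day 2.

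Leaving out replicate 3 of day 14 ended the Pax8 difference from day 2 (log2 −1.12, edgeR adjusted p = 0.0928) and kept the other 5. Sox9 was then at −3.65 against day 2 and −3.75 against day 3 (edgeR adjusted p = 0.00234 and 0.0106), and Cd24a at −1.48 against day 2 (0.00553). Sox9 was called lower than at day 1 as well (−2.66, edgeR adjusted p = 0.0138), and Cd24a lower than at day 3 (−1.23, 0.0464). Sox11 then had no read at day 14 and kept both calls (edgeR adjusted p = 0.0324 against day 1 and 0.0295 against day 2).

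Over the 18 libraries, log2 levels of Sox9 went with those of Cd24a (Pearson r = 0.91) and Sox4 (0.90), and Sox4 with Cd24a at 0.79. Sox9 and Lhx1 gave −0.70, and Sox9 and Prom1 0.15. These values are descriptions over libraries that share groups and depth. Among 9326 genes with at least 5 CPM in their highest group, those most like Sox9 were Cp (0.97), the plasma copper oxidase ceruloplasmin, then Klf6 (0.95), a zinc finger factor, C3 (0.95), the central complement protein, Tubb2b (0.95), a tubulin, and Gc (0.95), the vitamin D binding protein. Cp stood at 15.2, 211, 366, 279, 213 and 85.8 CPM from untreated kidney to day 14. For Sox4 the list was Nfkbiz (0.93), Ucp2 (0.92), Sox9 (0.90), Bhlhe40 (0.90) and St6gal1 (0.90), and for Sox11 it was Tgm2 (0.91), Tnfrsf12a (0.90), Lrg1 (0.89), Igf2bp2 (0.89) and Rcan1 (0.88). For Cd24a it was Tubb2b (0.94), Cp (0.94), Lcn2 (0.94), Klf6 (0.94) and Clu (0.93), so Cp, Klf6 and Tubb2b stood in the lists of both Sox9 and Cd24a.

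Genes of other programs were counted in the same comparisons, against the percentages of all genes given above. Of 18 genes of injured tubule, 13, 14, 13, 12 and 7 rose at days 1, 2, 3, 7 and 14, with median log2 fold changes of 3.53, 3.78, 3.26, 2.64 and 1.72. Without replicate 3 of day 14 the count of 7 stayed and that median was 1.13. Havcr1 (KIM-1), a phagocytic receptor of injured proximal tubule, went from 16.4 ± 6.52 CPM to 2338 ± 97.1 at day 1 and 33.3 ± 8.80 at day 14 (SD, n = 3). Its fold at day 1 was 142 (edgeR adjusted p = 9.78e-09), and at day 14 it did not pass (0.115). Itgb6, an epithelial integrin, fell at days 7 and 14 (log2 −0.86 and −1.65, edgeR adjusted p = 0.0309 and 0.00105), the day 7 call being lost when a single untreated library or replicate 1 or 3 of day 7 was left out. The day of the highest value varied within this list. The Havcr1 mean was highest at day 1, and those of Lcn2 (341 CPM) and Clu (694 CPM) at day 2, as was that of Cd24a. The fitted changes of Vcam1 and Cd44 were highest at day 3, as was the Sox9 mean, and that of Ccl2 at day 7. With all libraries in the fit, no change of Sox9 or Cd24a from a time to the next was called.

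Of 16 transcription factors of the mature tubule, 5, 2, 3, 0 and 0 fell at the 5 times and none rose. Esrrb fell from 7.78 ± 2.73 to 1.16 ± 0.244 CPM at day 1 (log2 −2.75, edgeR adjusted p = 0.0068), Ppargc1a, the coactivator of mitochondrial genes, from 85.1 ± 19.3 to 25.8 ± 2.87 CPM (−1.72, 0.00138), and Maf from 168 ± 45.5 to 54.8 ± 12.2 CPM (−1.62, 0.00103). These 3 calls held under all 14 alternatives of the fit, over which 4 to 7, 1 to 4 and 0 to 5 genes of the list fell at days 1, 2 and 3. Median log2 fold changes of the list were −0.75, −0.24, −0.61, −0.38 and −0.14.

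The kidney development genes did not move in a single direction. Of 26 tested, 1, 3, 0, 1 and 0 rose and 4, 7, 0, 0 and 0 fell at the 5 times, with medians of −0.36, −0.23, −0.04, 0.21 and 0.11. Over the 14 alternatives 1 to 4 fell at day 1 and 2 to 7 at day 2. Irx1, a factor of the forming proximal and middle nephron, fell from 4.04 ± 0.982 to 0.244 ± 0.124 CPM at day 1 (log2 −4.02, edgeR adjusted p = 0.00129). Gfra1, the receptor for the duct growth signal GDNF, fell from 4.82 ± 1.45 to 1.30 ± 0.411 CPM at day 1 (−1.89, 0.0169) and lost the call without untreated replicate 3 or replicate 2 or 3 of day 1. Ncam1, an adhesion molecule of the forming nephron, rose from 2.56 ± 1.39 CPM to 15.2 ± 5.88 at day 2 (2.57, 0.00296) and 11.6 ± 8.37 at day 7 (2.18, 0.0131). Ncam1 lost the day 7 call without replicate 1 of day 7 or untreated replicate 1 or 2. Six2 and Wt1 are named after their values were seen, as standard factors of nephron progenitors and podocytes. Six2 was at 6.17 ± 0.233 CPM in untreated kidney and between 6.29 and 8.80 CPM in the treated groups, and Wt1 was between 2.70 and 3.37 CPM in all groups. Neither passed at any day.

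Among 14 genes of progenitor and stem cells, 2, 5, 2, 4 and 2 rose and 1, 1, 1, 1 and 0 fell. Cd44 is also on the list of injured tubule genes and Ncam1 on that of kidney development genes. Both were counted in each of their lists, so these counts are not independent. Cd44, the hyaluronan receptor, went from 0.630 ± 0.108 CPM to 21.8 ± 8.74 at day 1 and 25.2 ± 14.0 at day 14 (folds of 34.7 and 40.1, edgeR adjusted p = 6.71e-05 and 0.00036). It was called at each of the 5 times under all 14 alternatives. Aldh1a2, which makes retinoic acid, was called higher at the 5 times too, from 0.307 ± 0.219 CPM to 7.82 ± 1.48 CPM at day 1 (log2 4.61, edgeR adjusted p = 0.000463). It lost the call at day 3 when a single untreated library or replicate 2 or 3 of that day was left out, and at day 14 without untreated replicate 1. Lgr4, the R-spondin receptor, fell at days 1, 3 and 7 by log2 values of −0.78 to −1.06. It lost each of these calls without untreated replicate 2, and some without untreated replicate 1, replicate 1 or 3 of days 1 and 7, or replicate 2 of day 3. Over the alternatives 1 to 6 genes of this list rose on a day. Of 12 further genes of the epithelial-mesenchymal transition, 2, 3, 2, 3 and 3 rose and 0 fell, with 2 to 6 higher at days 3 and 7 over the alternatives. Fn1, the matrix protein fibronectin, rose from 8.68 ± 1.57 to 94.3 ± 26.4 CPM at day 7 (fold of 10.9, edgeR adjusted p = 2.9e-05), and Vim, the filament protein vimentin, from 3.73 ± 0.995 to 22.1 ± 3.19 CPM at day 3 (5.91, 0.000972). Vim was called at day 14 too, but not without replicate 3 of that day or untreated replicate 3, so that 2 of the 12 rose at day 14 without the former. Zeb2, a repressor that binds the same E-box family, rose at day 7 to 111 ± 17.5 from 42.4 ± 7.63 CPM (2.62, 0.0093) and at day 14 (2.88, 0.0145). It lost both calls without untreated replicate 2, and that of day 14 also without untreated replicate 1.

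**Figure D4:**
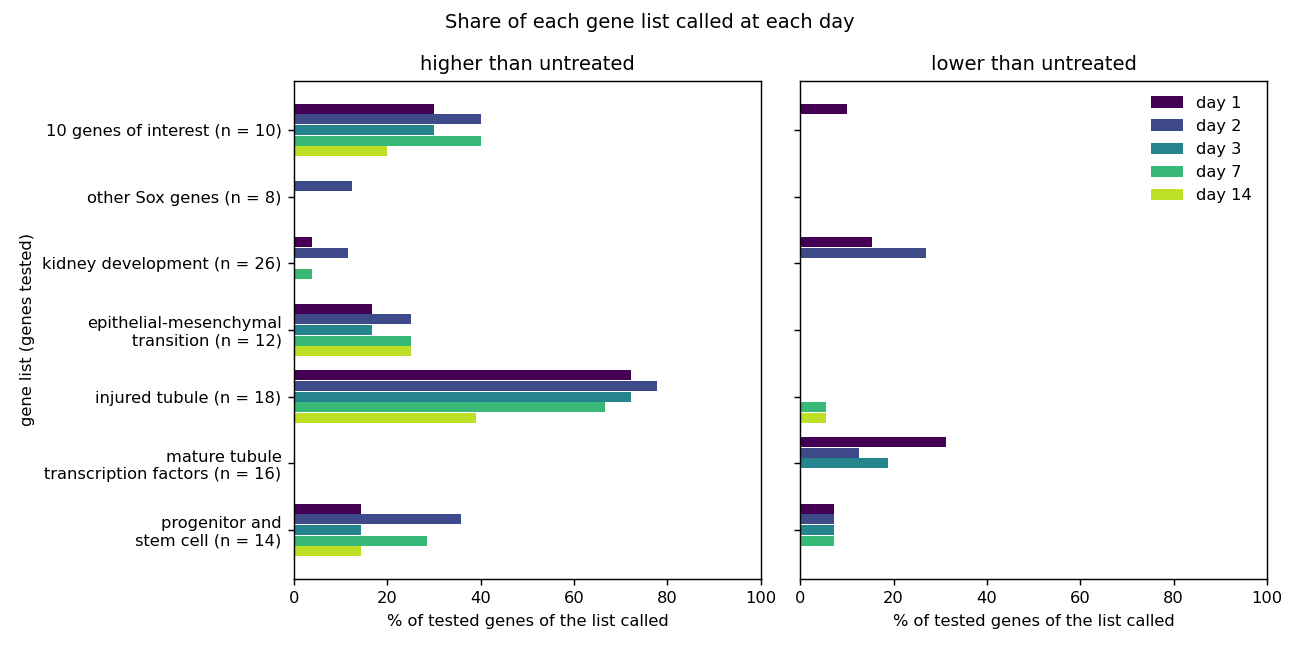
Share of the tested genes of each list (horizontal axis, percent) called higher (left) or lower (right) than untreated kidney at each day, by edgeR at an adjusted p under 0.05. Bars start at 0 and the number of tested genes stands beside each list. Of the injured tubule genes 14 of 18 are called higher at day 2, while calls among kidney development genes lie on both sides. Cd44 and Ncam1 each stand on more than a single list.

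Of 13 cartilage genes that Sox9 is known to drive in chondrocytes, 3 were expressed enough to test. None of these rose, and 1, 2, 0, 1 and 0 fell at the 5 times. All 13 genes, tested or not, summed to 1.85, 4.35 and 12.8 CPM in untreated replicates 1, 2 and 3. They summed to 0.922 to 9.27 CPM at day 1, 0.169 to 3.89 at day 2 and 0.985 to 1.55 at day 3, when the Sox9 mean was highest. At day 7 they summed to 0.499 to 2.43 CPM and at day 14 to 2.28 to 4.58 CPM. All of these ranges except that of day 3 overlapped the untreated range. Col2a1, Col9a1 and Matn1 were at 0 in all 18 libraries. Hapln1, a link protein of cartilage matrix, fell from 2.23 ± 1.04 CPM to 0.00750 ± 0.0130 CPM at day 1 (edgeR adjusted p = 0.00144) and had no read at day 2 (0.00159). Both calls held under all 14 alternatives. Hapln1 was also called lower at day 7 (0.189 ± 0.206 CPM, 0.0436), which was lost when a single untreated library or replicate 2 or 3 of day 7 was left out. Col11a1, a fibrillar collagen, stood at 3.77 ± 5.69 CPM in untreated kidney and was called lower at day 2 (0.0128 ± 0.0222 CPM, edgeR adjusted p = 0.0471), but not when untreated replicate 2 or 3 or any library of day 2 was left out.

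Markers of other cell types and of cell division moved as well. Of 8 division markers, 2, 8, 5, 4 and 0 rose, and they summed to 4.70 to 9.75 CPM in untreated kidney, 18.5 to 41.1 at day 1, 109 to 152 at day 2, 72.0 to 91.2 at day 3, 27.8 to 32.4 at day 7 and 14.0 to 26.8 CPM at day 14. Of 8 macrophage markers, 1, 1, 3, 6 and 4 rose and 1, 1, 0, 0 and 0 fell, with sums of 21.1 to 46.4 CPM in untreated kidney, 17.7 to 22.5 at day 1, 21.0 to 26.5 at day 2, 38.9 to 65.0 at day 3, 96.0 to 129 at day 7 and 52.9 to 146 CPM at day 14. Without replicate 3 of day 14, 2 rather than 4 rose at that day, and C1qb and Mrc1 lost their calls. No marker of either list was at 0 in a whole group. Of 7 markers of parietal epithelium and urothelium found, 6 were tested and 1, 1, 1, 1 and 0 rose, which was Cldn1 each time, a claudin of tight junctions. Cldn1 went from 15.4 ± 4.72 to 105 ± 31.3 CPM at day 1 (log2 2.77, edgeR adjusted p = 4.75e-05), while the list's median log2 fold change was −0.04, −0.58, 0.30, 0.09 and −1.47. The 7 summed to 14.3 to 26.2 CPM in untreated kidney, with Krt14 at 0, and to 86.8 to 145 at day 1, 50.2 to 103 at day 2, 66.3 to 96.4 at day 3, 56.2 to 80.8 at day 7 and 22.9 to 36.8 CPM at day 14. The part of these lists in the Sox9, Sox4 and Cd24a values was not tested.

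Markers of the loop and distal tubule fell early. The Lhx1 mean was lowest at days 1 to 3, and in edgeR's fit of all libraries only day 1 was called. Most proximal tubule markers fell on those days too. Of 8 loop and distal tubule markers, 7, 6, 6, 1 and 0 fell at the 5 times and none rose, with median log2 fold changes of −3.36, −2.79, −1.77, −0.60 and −0.07. They summed to 1702 to 2343 CPM in untreated kidney, 228 to 411 at day 1, 278 to 411 at day 2, 518 to 829.9 at day 3, 1348 to 1512 at day 7 and 1728 to 2386 CPM at day 14. Egf, the growth factor made in the distal tubule, went from 306 ± 23.3 to 3.66 ± 1.25 CPM at day 1 (log2 −6.39, edgeR adjusted p = 3.86e-07), and Slc12a1, the salt cotransporter of the thick ascending limb, from 567 ± 191 to 21.5 ± 10.2 CPM (−4.72, 4.79e-06). Of 8 collecting duct markers tested, 3, 3, 1, 0 and 0 fell and none rose (medians −1.10, −0.90, −0.80, −0.52 and 0.05), and they summed to 89.4 to 149 CPM in untreated kidney and 32.1 to 63.9 at day 1. Of 8 endothelial markers, 3, 4, 5, 1 and 0 fell and none rose (medians −1.16, −1.83, −1.86, −0.79 and −0.15), with sums of 86.0 to 174 CPM in untreated kidney and 21.1 to 36.7 at day 2. Kdr, a receptor for VEGF, fell from 21.1 ± 7.74 to 2.11 ± 0.966 CPM at day 2 (log2 −3.26, edgeR adjusted p = 8.36e-05). Of 7 podocyte markers, 1, 3, 2, 2 and 0 fell and none rose (medians −0.16, −1.18, −0.49, 0.28 and −0.12), with sums of 100.4 to 185 CPM in untreated kidney and 44.7 to 66.1 at day 2. Over the alternatives 3 to 7 loop and distal tubule markers and 2 to 6 endothelial markers fell at day 3. Of these 4 lists, Avpr2 of the collecting duct alone was at 0 in a whole group, at days 2 and 14. The part of these lists in the values of Lhx1 and of the other 9 genes was not tested.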

How the data were processed

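Per the labels' protocols, libraries were made from 10 ng of TRIzol-extracted total RNA of frozen whole kidney with NuGEN SPIA reagents. Per the submitters' processing notes the authors used cutadapt, TopHat2 2.07, build NCBIM37, HTSeq and DESeq. The strand setting is not given in the sources used here. The deposited raw tables hold read counts for 37991 gene identifiers, and 5 tally rows of reads assigned to no gene, 34.5% to 51.3% of the reads listed, were left out. The deposited normalized tables were not used.

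Counts were fitted with edgeR 4.0.16 in R 4.3.3 (quasi-likelihood F test, TMM scaling, filterByExpr, 1 fit over 18 libraries, 15 pairwise contrasts, two-sided, Benjamini-Hochberg over 16824 genes, threshold 0.05). DESeq2 1.42.0 and limma-voom 3.58.1, other scalings, no low-count filter, single groups and left-out libraries were alternatives. The code was tested on simulated data. Symbols, exon lengths and overlaps came from GENCODE M21, a later build than the counts, and start regions from RefSeq. The 10 genes and 21 gene lists were chosen with earlier results of these data known. Named list genes were mainly drawn from the 3 with the largest called log2 fold change on a day and up to 2 in the other direction. Not all genes that met this rule are named, Acta2, Hoxd11 and Six4 being among those left out. Some named genes are outside it. Likeness is Pearson r of log2 CPM with a prior count of 2. Replicate numbers do not pair libraries, and no libraries of a group were copies (chi-square per degree of freedom 41.7 to 114.2).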

Additional observations from a re-analysis of the deposited data

Results flagged for a closer look

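The change against untreated kidney differed between day 14 and an earlier day in 6 cases, each by a direct edgeR test of the 2 days. Values are the log2 level at day 14 minus that at the earlier day. Sox9 gave −2.60 against day 2 (SE 0.61, edgeR adjusted p = 0.0119) and −2.69 against day 3 (SE 0.61, 0.0417). Leaving out replicate 3 of day 14 gave −3.65 and −3.75, which passed, while leaving out replicate 1 or 2 of day 14 gave −2.24 to −2.37 and neither difference passed (edgeR adjusted p from 0.0585 to 0.168). The difference from day 3 was also lost without replicate 1 or 2 of day 3 (0.0739 and 0.196), with the replicate number as a block (0.0998) and with only those 2 groups in the fit (0.179), and that from day 2 with only those groups (0.0729). Sox11 gave −5.76 against day 1 (SE 1.49, 0.0224) and −5.88 against day 2 (SE 1.50, 0.0191), with 2 reads in all at day 14, and without replicate 3, which held both, −8.68 and −8.80. Neither passed without replicate 1 or 2 of day 14 (edgeR adjusted p from 0.0777 to 0.091), nor did that from day 2 without replicate 1 of day 2 (0.0618). Pax8 gave −1.14 against day 2 (SE 0.33, 0.0379) and Cd24a gave −1.13 against day 2 (SE 0.29, 0.0194). Pax8 did not pass when any day 14 library or replicate 2 or 3 of day 2 was left out (edgeR adjusted p from 0.0777 to 0.124), and Cd24a did not when replicate 1 or 2 of either day was (0.0536 to 0.0932). In edgeR both were also lost with library totals (adjusted p = 0.0674 for Pax8 and 0.0786 for Cd24a) and with only those 2 groups in the fit (0.0961 and 0.141). Pax8 was lost as well with the replicate number as a block (0.0588) and with limma-voom (0.110). Every day 14 library was below every day 2 library for Sox9, Sox11, Pax8 and Cd24a. The same held for 10.9% of all genes, and 13.7% were higher without overlap, Snai2 among the latter.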

How the results depend on the processing

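Of 23 calls of a gene in a comparison, 12 held under all 14 alternatives and 0 changed direction; the 12 were Sox9, Sox4 and Cd24a at days 1, 2, 3 and 7 against untreated kidney. Library totals without TMM moved the median of all genes up by 0.14, 0.24, 0.58, 0.68 and 0.32 (log2) at the 5 times, and gave Sox9 6.44 at day 3 and 5.71 at day 7, Sox4 4.15 at day 7, Cd24a 2.39 and 2.13 at days 3 and 7, and Pax8 2.09 at day 7. The number of genes called at day 14 against untreated kidney was 0 with only the compared groups fitted, 0 with limma-voom and 0 to 3 with a library left out. Against day 7 it was 1 with DESeq2 and 0 to 1 with a library left out. Against day 1 it was 2 with library totals, limma-voom or DESeq2 and 0 to 2 with a library left out. Against day 2 it was 2 with library totals, 1 with only the compared groups and 0 to 3 with a library left out. Against day 3 it was 0 with only the compared groups, 2 with DESeq2 and 0 to 2 with a library left out. The alternatives for day 14 against days 1, 2 and 3 were chosen after seeing the data. Differences across the 6 groups were called for 3 to 7 genes with a library left out. The cause of these shifts was not tested.

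Uncalled values near 0 changed sign. Prom1 at day 3 was 0.57 with library totals, 0.070 with limma-voom and −0.34 to 0.30 with a library left out, and at day 14 it was 0.21 with library totals and −0.44 to 0.20. Snai2 at day 3 was −0.025 with DESeq2 size factors, −0.018 with only the compared groups, −0.016 with DESeq2 and −0.39 to 0.84. Pax8 at day 14 was −0.020 with DESeq2 size factors, −0.013 without mitochondrial genes, −0.022 with DESeq2 and −0.10 to 0.060. With a library left out, Pax2 at days 1 and 3 ran from −0.45 to 0.25 and −0.23 to 0.47, Snai2 at days 1 and 2 from −1.21 to 0.18 and −1.06 to 0.17, Prom1 at day 2 from −0.081 to 0.56, Sox11 at day 7 from −2.03 to 2.69, and the fitted Twist1 value at day 2, from 1 read, from 0 to 2.32.

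Replicate numbers do not pair the libraries: same-numbered libraries of different groups had deviations correlated at −0.0543 to 0.0416, and 5 of 18 libraries correlated best with their own number. With the replicate number as a block, 0 genes were called at day 14 against day 3, and the calls of Lhx1 at day 1 (edgeR adjusted p = 0.0504), Pax8 at day 14 against day 2 (0.0588) and Sox9 at day 14 against day 3 (0.0998) were not made; no other call changed. The depth limits Sox11 and Twist1, with 10 and 0 reads in untreated kidney.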
